A study of Drosophila melanogaster with 11 samples.

Results

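The X chromosome contacts described here are the pairs of ligated fragments with both ends on X, and those with one end on X and the other on 2L, 2R, 3L or 3R. These 5 classes, of the 36 pairs of chromosome arms and other sequences that were counted, were taken by their chromosome names alone in each of the 11 MicroC libraries. They held between 15.5% and 17.1% of all unique contacts of a library. MicroC digests crosslinked chromatin between nucleosomes with MNase and joins DNA ends that are close in the nucleus, and paired reads then show which sequences were joined. Contacts within an arm are called cis and contacts between arms trans. The libraries came from pools of whole embryos aged 12–16 hr (stage 14 in the sample records), collected for 4 hr and kept for 12 hr at 25°C. All 4 genotypes carry an exchanged *nhomie* region, the boundary upstream of *even skipped* (*eve*) on 2R, made through flanking attP sites. It holds *nhomie* in its normal orientation in *nhomie forward* (the study's positive control, 2 libraries), phage DNA in *λ DNA*, inverted *nhomie* in *nhomie reverse* and the downstream boundary *homie* in *homie forward* (3 libraries each). None of these changes is on X. The sex of the embryos is not stated in the sample records, and the counts used here, which leave out Y, do not separate XX from XY embryos.

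Female flies have a pair of X chromosomes and males have one X and a Y, whereas both sexes have a pair of each autosome. In males the single X is bound by the dosage compensation complex, which raises the transcription of its genes, but the amount of DNA stays that of one copy. Homologous chromosomes are aligned side by side in most somatic cells of *Drosophila*, and reads do not tell a contact between the homologs from a contact within one of them, so both are counted as cis. The autosomes 2 and 3 each have a left and a right arm, joined at the centromere, while the sequence of X is one long arm with its centromere near the end. An equal mix of XX and XY embryos would hold 3 X chromosomes for 4 copies of an autosome, or 0.75 X copies per autosome copy.

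The lengths used were 23542271 bp for X, 23513712 bp for 2L, 28110227 bp for 3L, 32079331 bp for 3R, and between 25287480 and 25287541 bp for 2R, which differed with the replacement. They are lengths of assembled sequence, and how much of each arm can be mapped was not analysed here. The libraries held 87012109 to 472473246 unique contacts, so that raw counts were compared only within a library. Replicate 1 of *λ DNA*, *nhomie reverse* and *homie forward* stood apart from the other libraries, with 37.5%, 24.7% and 31.6% of the unique contacts being cis at 1 kb or more, against 44.5% to 59.1% in the other 8. Unligated fragments also count as cis pairs when shorter than 1 kb, and the counts by arm do not separate these short pairs from longer cis contacts. Pairs under 1 kb made up 35.3% to 71.3% of the cis pairs of a library. They are part of every cis density and cis share given here.

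Replicates 2 and 3 of the same 3 genotypes were nearly alike. Their X trans contacts were spread over the 4 arms with no difference beyond the sampling noise (chi-square tests, p = 0.998 in *λ DNA*, 0.138 in *nhomie reverse* and 0.821 in *homie forward*). Over all 5 classes they differed by 0.0469%, 0.0494% and 0.0928% of X contacts, which was more than the sampling noise (4.87, 6.59 and 15.1 for the chi-square per degree of freedom). For replicates 1 and 2 this chi-square was 4957, 2679 and 21205 per degree of freedom. Replicates 2 and 3 were averaged and counted as 1 sample, leaving 8 samples with n = 2 in every genotype, although the study's methods describe the libraries of a genotype as independent biological replicates. Where counting all 11 libraries separately changes a call, this is given beside the result. The *nhomie forward* libraries did not differ beyond the sampling noise in the spread of X trans contacts either (chi-square test, p = 0.321), but differed by 0.480% of X contacts over the 5 classes and were kept as 2 samples. Which libraries share a collection of embryos is not stated in the sources used here, and p-values measure only the spread between these samples.

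X had fewer cis contacts per Mb than every autosomal arm in all 11 libraries. The density on X was 1880.1 and 2593 cis contacts per kb in replicates 1 and 2 of *nhomie forward*, and 491, 1064 and 880.1 in replicates 1 to 3 of *λ DNA*. It was 981, 1122 and 899 per kb in *nhomie reverse* and 557, 716 and 524 per kb in *homie forward*. These raw values followed the depth of the libraries. Relative to the mean of the 4 autosomal arms of the same library, the X density was 0.773 and 0.770 in *nhomie forward*, 0.807, 0.773 and 0.772 in *λ DNA*, 0.822, 0.777 and 0.776 in *nhomie reverse*, and 0.817, 0.788 and 0.786 in *homie forward*. The autosomal arms lay between 0.933 and 1.05 on this scale, with 3L the lowest and 3R the highest arm by their medians (0.937 and 1.05), so that X did not overlap with any of them. Against single arms, the ratio of X ran from 0.732 to 0.871.

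**Figure D1:**
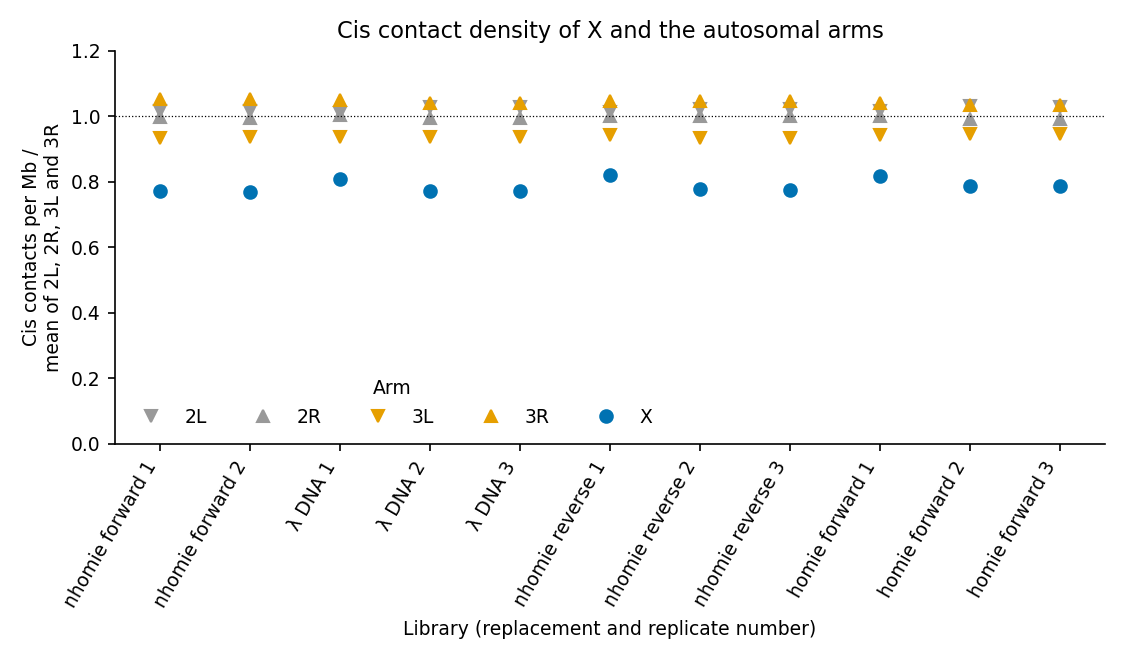
Cis contacts per Mb of X and of each autosomal arm, divided by the mean of 2L, 2R, 3L and 3R of the same library, for each of the 11 libraries. X (circles) lies between 0.770 and 0.822 and the 4 autosomal arms (triangles) between 0.933 and 1.05 in every library.

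Counting the ends of cis and trans contacts together, as a measure of coverage, X in *nhomie forward* had 0.776 ± 0.00169 times the mean end density of the autosomal arms (mean ± SD, n = 2, as for the other genotypes). *λ DNA* had a ratio of 0.796 ± 0.0235, *nhomie reverse* of 0.806 ± 0.0297 and *homie forward* of 0.807 ± 0.0221. All of them are above the 0.75 of an equal mix of the sexes. Over the 8 samples the log2 ratio was -0.33 ± 0.038 (SD), below 0 in 8 of 8 samples (exact permutation test over sign changes, two-sided, p = 0.00781, the smallest possible, Benjamini-Hochberg adjusted p = 0.00938 over 6 comparisons of X with autosomes). Without replicate 1 of *λ DNA*, *nhomie reverse* and *homie forward* the log2 ratio was -0.36. The test is against equal densities of X and autosomes, which a pool with XY embryos would not have. Passing it therefore says little, and the distance from 0.75 was not tested.

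The ratio for X moved with the share of long cis contacts. The 3 libraries with the lowest shares of cis contacts at 1 kb or more (24.7%, 31.6% and 37.5%) had the highest relative cis densities of X, 0.822, 0.817 and 0.807. Next came replicates 2 and 3 of *homie forward*, with shares of 45.0% and 44.5% and ratios of 0.788 and 0.786. The other 6 libraries had shares of 50.3% to 59.1% and ratios of 0.770 to 0.777. The part of pairs under 1 kb in the X ratio was not tested, since these are not counted by arm.

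**Figure D2:**
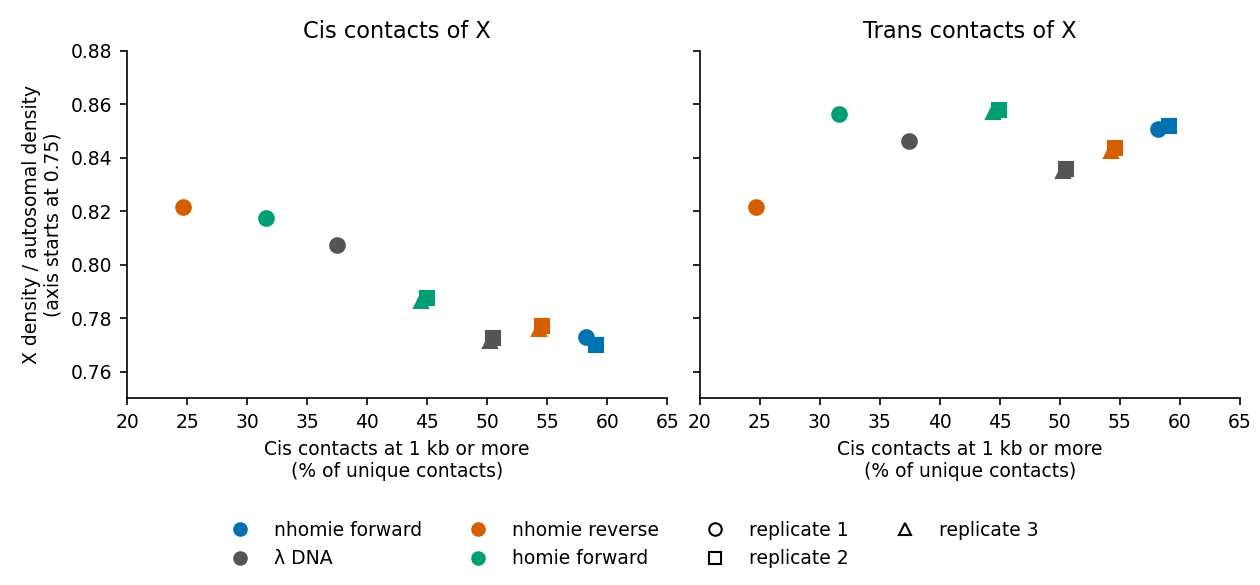
Density of X contacts relative to autosomal contacts (y axis, starting at 0.75, no unit) against long cis contacts (1 kb or more) in percent of unique contacts (x axis), for cis contacts on the left and trans contacts on the right. Each point is a library, with colors for the 4 replacements and shapes for replicate numbers. On the left the 3 libraries with 24.7% to 37.5% lie at 0.807 to 0.822 and the other 8 at 0.770 to 0.788, and on the right all libraries lie between 0.821 and 0.858, with the lowest share and the lowest ratio in *nhomie reverse* replicate 1.

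Trans contacts of X with the autosomes were counted per Mb of X and per Mb of the arm, so that arms of different lengths can be compared. In *nhomie forward* replicate 1, X had 3316 such contacts with 2L, 3281 with 2R, 3212 with 3L and 3272 with 3R. The 4 pairs of an arm of chromosome 2 with an arm of chromosome 3 had between 3709 and 3962 in this library, and the 4 X pairs all lay below them. The same held in 11 of 11 libraries. Relative to the mean of the 4 pairs of chromosome 2 with chromosome 3, X with 2L ranged from 0.836 to 0.879 (median 0.865), X with 2R from 0.818 to 0.854 (median 0.846), X with 3L from 0.796 to 0.845 (median 0.831) and X with 3R from 0.834 to 0.865 (median 0.851). The pairs of chromosome 2 with chromosome 3 ranged from 0.956 to 1.04. The arms of one chromosome had higher densities with each other, from 1.14 to 1.51 for 2L with 2R and from 1.08 to 1.32 for 3L with 3R, and no pair of X reached these.

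**Figure D3:**
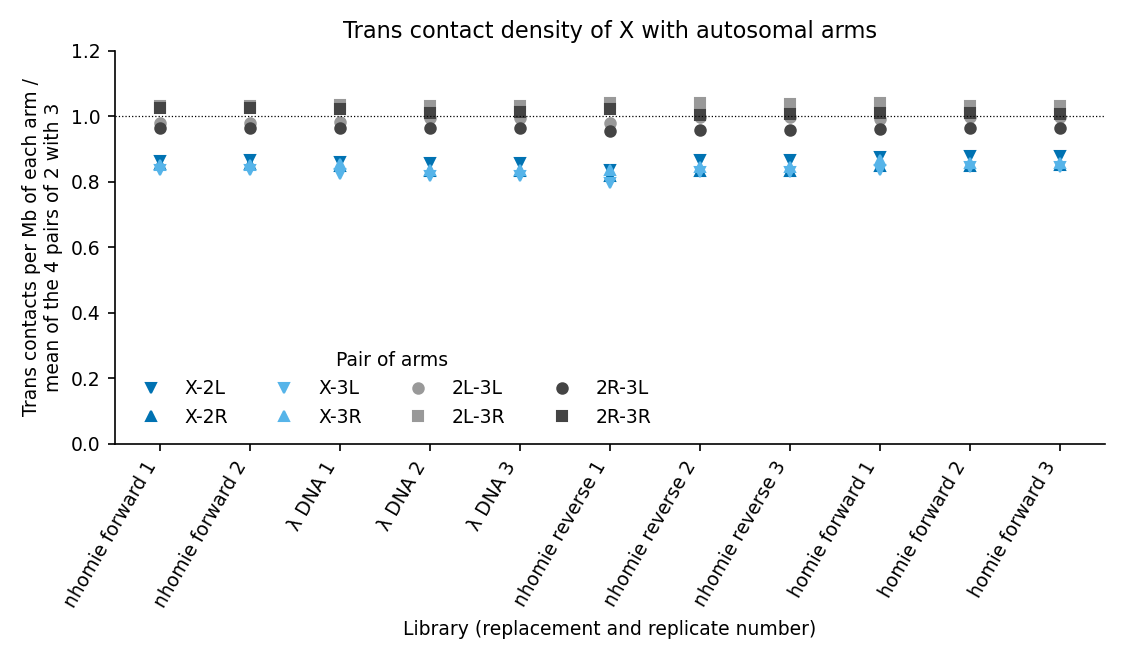
Trans contacts per Mb of each of both arms, divided by the mean of the 4 pairs of chromosome 2 with chromosome 3 in the same library, for the 11 libraries. The X pairs (triangles) lie between 0.796 and 0.879 and the pairs of chromosome 2 with chromosome 3 (circles and squares) between 0.956 and 1.04.

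Averaged over the 4 arms, the relative trans density of X was 0.851 and 0.852 in *nhomie forward* and 0.846, 0.836 and 0.835 in *λ DNA*. It was 0.821, 0.844 and 0.843 in *nhomie reverse* and 0.856, 0.858 and 0.857 in *homie forward*. *nhomie reverse* replicate 1, the library with the fewest long cis contacts, had the lowest value. The relative trans density of X was higher than its relative cis density in 10 of 11 libraries. The exception was *nhomie reverse* replicate 1, where the cis value was 0.822 and the trans value 0.821. Over the 8 samples the log2 cis ratio minus the log2 trans ratio was -0.097 ± 0.049 (SD), below 0 in 7 of 8 samples (exact permutation test over sign changes, two-sided, p = 0.0156, Benjamini-Hochberg adjusted p = 0.0156). Without replicate 1 of *λ DNA*, *nhomie reverse* and *homie forward* the difference was -0.13. Cis but not trans counts include contacts between homologs, which the single X of males lacks, and pairs under 1 kb. A pool with XY embryos need not have equal ratios, so passing this test says little. The part of either in the difference was not tested.

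A smaller share of the X contacts was cis than of the contacts of any autosomal arm, in 11 of 11 libraries. For this share, the contacts of an arm with the other arm of its own chromosome were left out. X thus had 4 partner arms and an autosomal arm 3, which by itself lowers the X share. The tests of this share therefore do not show a property of X. In *nhomie forward* 84.1% and 83.6% of X contacts were cis in replicates 1 and 2, against 89.5% and 89.2% for the mean of the 4 autosomal arms. In *λ DNA* the X cis share was 81.6%, 79.8% and 79.9% in replicates 1 to 3, and the autosomal mean 87.2%, 86.3% and 86.3%. In *nhomie reverse* these were 75.4%, 76.4% and 76.5% against 81.9%, 83.8% and 83.8%, and in *homie forward* 82.5%, 86.1% and 86.2% against 87.8%, 90.7% and 90.8%. The 95% Wilson interval of an X cis share was at most 0.0202 percentage points on either side, which covers counting error only. The X share minus the autosomal share was thus between -7.33 and -4.67 percentage points in single libraries, and -5.85 ± 0.842 points (SD, n = 8) on average (exact permutation test over sign changes, two-sided, p = 0.00781, Benjamini-Hochberg adjusted p = 0.00938, lower in 8 of 8 samples). The average was -5.88 points without replicate 1 of *λ DNA*, *nhomie reverse* and *homie forward*.

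This gap was much smaller when X and the autosomal arms were given the same partners. X can meet 4 arms of other chromosomes, 109 Mb in all, whereas 2L or 2R can meet 3 arms of 83.7 Mb and 3L or 3R 3 arms of 72.3 Mb. When X was compared with 2L and 2R by trans contacts with chromosome 3 alone, and with 3L and 3R by those with chromosome 2 alone, the X cis share differed from the autosomal one by -0.714 and -0.774 points in *nhomie forward*. The difference was -0.407, -0.744 and -0.748 points in *λ DNA*, 0.0110, -0.909 and -0.906 points in *nhomie reverse*, and -0.392, -0.563 and -0.567 points in *homie forward*. X thus had the lower share in every library but *nhomie reverse* replicate 1. There the difference was smaller than the Wilson half-width of the X cis share with all partners (0.0153 points), and its own counting error was not computed. The mean difference of -0.56 points over the 8 samples passed the test (exact permutation test over sign changes, Benjamini-Hochberg adjusted p = 0.0156). With the same partners, however, the gap nearly restates the comparison of the cis with the trans density of X above. On the log2 scale of cis over trans contacts it was -0.095, next to -0.097 for that comparison, so it is not a separate result. The comparison with the same partners was chosen after the data were seen.

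**Figure D4:**
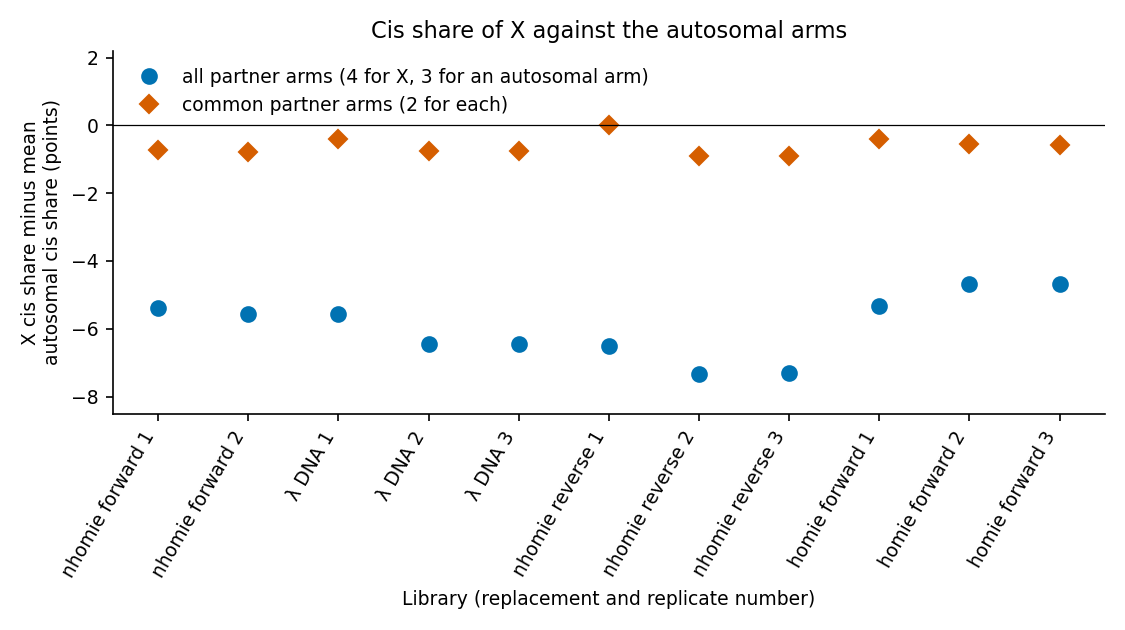
X cis share minus the mean cis share of 2L, 2R, 3L and 3R, in percentage points, for the 11 libraries. With all partner arms (circles) the difference lies between -7.33 and -4.67 points, and with the same partners for X and the autosomal arm (diamonds) between -0.909 and 0.0110 points.

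X contacted the 4 autosomal arms nearly in proportion to their lengths. The arms 2L, 2R, 3L and 3R make up 21.6%, 23.2%, 25.8% and 29.4% of their summed length, and in *nhomie forward* replicate 2 they received 21.9%, 23.3%, 25.4% and 29.5% of the X trans contacts. Over all libraries and arms, the share of X trans contacts differed from the share of length by -0.804 to 0.624 percentage points. The highest of the 4 X densities of a library was 1.03 to 1.05 times the lowest. Per Mb, X had slightly fewer contacts with chromosome 3 than with chromosome 2, with a log2 ratio of -0.021 ± 0.0054 (SD, n = 8) that was below 0 in 8 of 8 samples (exact permutation test over sign changes, two-sided, p = 0.00781, Benjamini-Hochberg adjusted p = 0.00938). In single libraries it ran from -0.032 to -0.016. The cis contacts per Mb of chromosome 3 were also lower than those of chromosome 2, with log2 ratios from -0.028 to -0.011, and their part in the result for X was not tested.

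Within chromosome 3, X had a different preference from chromosome 2. Per Mb, both had fewer contacts with 3L than with 3R, with log2 ratios from -0.071 to -0.023 for X and from -0.093 to -0.055 for chromosome 2. The ratio of X was the higher in every library, by 0.056 and 0.056 in *nhomie forward*, 0.028, 0.030 and 0.030 in *λ DNA*, 0.021, 0.038 and 0.036 in *nhomie reverse* and 0.023, 0.034 and 0.030 in *homie forward* on the log2 scale. The counting error of these differences was 0.0013 to 0.0033 (SE). Over the 8 samples the difference was 0.035 ± 0.014 (SD), positive in 8 of 8 samples (exact permutation test over sign changes, two-sided, p = 0.00781, Benjamini-Hochberg adjusted p = 0.00938), and 0.042 without replicate 1 of *λ DNA*, *nhomie reverse* and *homie forward*. X and chromosome 2 thus differed by 1.49% to 3.97% in their relative use of 3L and 3R.

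Within chromosome 2, the preference of X was close to that of chromosome 3. X had log2 ratios of 2L over 2R from 0.015 to 0.060 and chromosome 3 from 0.012 to 0.054. The difference was 0.0042 ± 0.0029 (SD, n = 8) and positive in 8 of 8 samples (exact permutation test over sign changes, two-sided, p = 0.00781, Benjamini-Hochberg adjusted p = 0.00938). It was however within 2 counting errors of 0 in 5 of the 11 libraries.

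**Figure D5:**
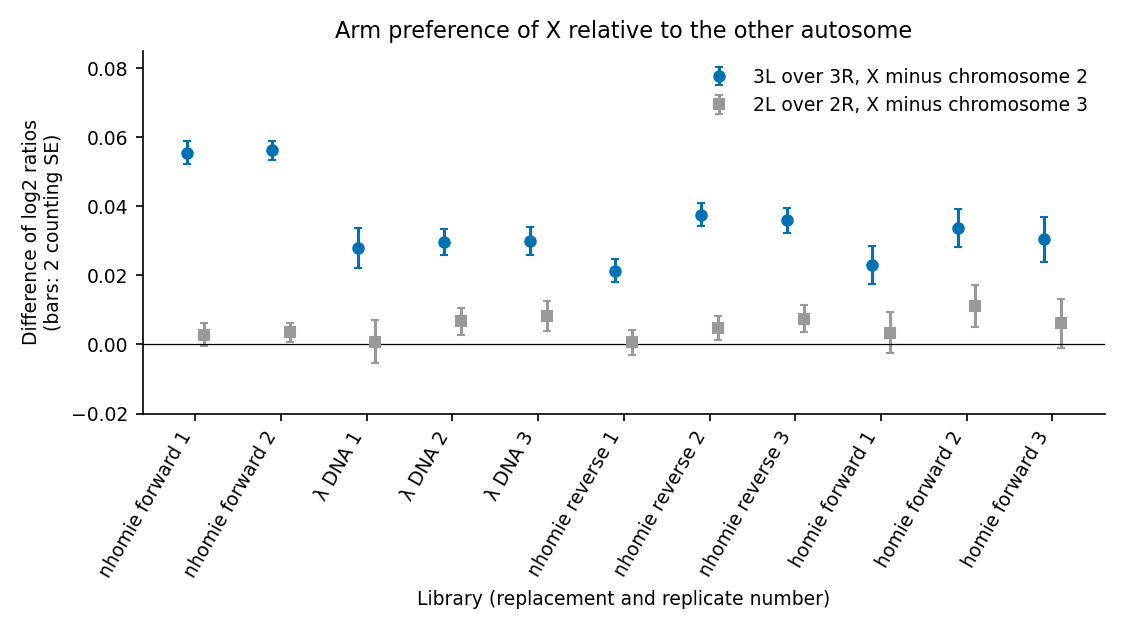
Log2 ratio of X contacts per Mb with 3L over 3R minus the same ratio for chromosome 2 (circles), and with 2L over 2R minus that for chromosome 3 (squares), for the 11 libraries, with bars of 2 counting standard errors. The circles lie between 0.021 and 0.056 and highest in *nhomie forward*, and the squares between 0.00065 and 0.011.

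Between the 4 replacements, 8 measures of X contacts were compared over the 8 samples, and none passed the threshold of 0.05 after adjustment. With 8 samples a single measure cannot pass, since the smallest possible p of 0.00952 becomes 0.0762 when it is adjusted alone over 8 measures, so this does not show that the genotypes were alike. For the relative cis density of X, *nhomie forward* had 0.771 ± 0.00203, *λ DNA* 0.790 ± 0.0249, *nhomie reverse* 0.799 ± 0.0318 and *homie forward* 0.802 ± 0.0214 (mean ± SD, n = 2 each, exact permutation of the F ratio, p = 0.476, adjusted p = 0.544). The relative end density gave p = 0.448 and an adjusted p of 0.544 (exact permutation test). The relative trans density was 0.851 ± 0.000872, 0.841 ± 0.00756, 0.832 ± 0.0153 and 0.857 ± 0.000682 in the same order (exact permutation test, p = 0.152, adjusted p = 0.305). For the cis density, replicate 1 of *λ DNA*, *nhomie reverse* and *homie forward*, with few long cis contacts, had 0.807, 0.822 and 0.817. Their other replicates had 0.773 and 0.772, 0.777 and 0.776, and 0.788 and 0.786, respectively. The *nhomie forward* libraries had 0.773 and 0.770. The part of this difference between libraries in the genotype means was not tested. An exact test of 2 samples against 2 cannot go below 0.333, so pairs of genotypes were not tested.

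The cis share of X was lowest in *nhomie reverse*, at 75.9% ± 0.768, whereas *λ DNA* had 80.8% ± 1.24, *nhomie forward* 83.8% ± 0.339 and *homie forward* 84.3% ± 2.55 (mean ± SD, n = 2 each, exact permutation of the F ratio, p = 0.0381, adjusted p = 0.152). The autosomal cis share had the same lowest genotype, with 82.8% ± 1.35 against 89.3% ± 0.207 in *nhomie forward* (SD, n = 2). The gap between X and the autosomal arms was widest in *nhomie reverse*, -6.91 ± 0.579 points, and narrowest in *homie forward*, -4.998 ± 0.456 points, with *nhomie forward* at -5.48 ± 0.133 and *λ DNA* at -6.01 ± 0.609 points. For this gap the exact permutation test gave p = 0.00952, the smallest possible, and an adjusted p of 0.0762. With the same partners for X and the autosomal arms the gap was -0.744 ± 0.0424 points (SD, n = 2) in *nhomie forward*, -0.577 ± 0.240 in *λ DNA*, -0.448 ± 0.650 in *nhomie reverse* and -0.478 ± 0.122 in *homie forward*, and the exact permutation test gave p = 0.857. With all 11 libraries as separate samples, the X cis share and its gap to the autosomal arms with all partners passed after adjustment (exact permutation tests, adjusted p = 0.0042 and 0.0096).

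The preference of X for 3L over 3R, relative to that of chromosome 2, was 0.056 ± 0.00047 (SD, n = 2) in *nhomie forward* on the log2 scale, and 0.029 ± 0.0014, 0.029 ± 0.011 and 0.027 ± 0.0065 (SD, n = 2) in *λ DNA*, *nhomie reverse* and *homie forward*. Both *nhomie forward* libraries lay above all other libraries, but the test over the 4 genotypes did not pass with 8 samples (exact permutation test, p = 0.143, adjusted p = 0.305). It passed with all 11 libraries as separate samples (adjusted p = 0.0403, exact permutation test). The *nhomie forward* libraries were also the 2 deepest and had the highest shares of long cis contacts, and the part of these in the difference was not tested. The preferences of X for chromosome 3 over 2 and for 2L over 2R gave p = 0.305 and 0.857 (exact permutation tests, adjusted p = 0.488 and 0.857).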

How the data were processed

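MicroC libraries of 11 embryo pools of 4 genotypes were used. For each genotype, the authors used BWA-MEM with a genome edited from BDGP Release 6 (dm6), and made the pair lists with Pairtools. Duplicates were dropped, and a pair was kept only if each end had a place in the genome and a mapping quality of at least 3. Versions are not given in the sources used here. The deposited values are 222 statistics per library, among them raw counts of pairs by pair of chromosome arms and chromosome lengths, without normalization. The authors' deposited fractions were not used.

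Densities, shares and log2 ratios were computed from these counts in Python (3.11.15) with scipy (1.17.1) and numpy (2.4.6), and figures were drawn with matplotlib (3.10.9). Contacts of X with chromosomes 4 and Y were not used. Density ratios were averaged over arms and tested on the log2 scale. As a few whole-arm counts are no set of separate features, no count model was fitted. Genotypes were compared by permuting the F ratio exactly over 2520 assignments of 8 samples, adjusted over 8 measures, and X with autosomes by a two-sided exact test over all 256 sign changes, adjusted over 6 comparisons (Benjamini-Hochberg, threshold 0.05). All 5 X classes are described, and no gene was named among the results. The permutation tests were first run on simulated data with known answers, and the chi-square tests were not. The depth is given for each library as unique contacts, and the counting error of an X trans count is at most 0.151%. Members, measures and tests were chosen with earlier results of these data known.

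Alternatives were all 11 libraries as separate samples, a replicate block, each library left out, and other references, shares and scales. Over the 15 classes of contacts within and between the 5 large arms, deviations from the genotype means correlated by over 0.1 in 5 of 15 pairs of libraries with the same replicate number. The same held in 17 of 30 pairs with different replicate numbers. These pairs are not independent. By construction the 2 *nhomie forward* libraries mirror each other, with correlations of 0.89 and -0.89 with *λ DNA* replicate 1. The counts therefore cannot decide whether the numbers mark a block, and the numbers were not taken as pairing the samples in the main tests.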

Additional observations from a re-analysis of the deposited data

Results flagged for a closer look

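The gap between the cis shares of X and of the autosomal arms was flagged because it differed between the 4 replacements before adjustment (exact permutation of the F ratio, p = 0.00952, the smallest possible), although not after it (adjusted p = 0.0762 over 8 measures). It was -5.39 and -5.57 percentage points in *nhomie forward*, -5.58, -6.44 and -6.44 in *λ DNA*, -6.50, -7.33 and -7.32 in *nhomie reverse*, and -5.32, -4.68 and -4.67 in *homie forward*. On the log2 scale of cis over trans contacts the gap was -0.69 ± 0.0049 (SD, n = 2) in *nhomie forward*, -0.65 ± 0.035 in *λ DNA*, -0.62 ± 0.076 in *nhomie reverse* and -0.64 ± 0.039 in *homie forward*, where the order of the genotypes is another one and the test gave p = 0.457 (exact permutation test).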

How the results depend on the processing

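All 6 comparisons of X with autosomes kept their direction under every alternative run, and passed with each library left out in turn (adjusted p from 0.00937 to 0.0312). Without replicate 1 of *λ DNA*, *nhomie reverse* and *homie forward* together, the log2 values were -0.36 for end density, -0.13 for cis against trans density, -0.023 for chromosome 3 over 2, 0.0057 for 2L over 2R and 0.042 for 3L over 3R, and the cis share gap was -5.88 points, but the exact test over 5 samples cannot go below p = 0.0625. With the partner arm counted as trans the cis share gap was -0.97 points, and with contact ends as the unit -3.47 points.

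Across genotypes, tests on all 11 libraries as separate samples passed after adjustment for the X cis share (exact p = 0.000519), its gap to the autosomes (0.0024) and 3L over 3R (0.0151). Their adjusted p was 0.0042, 0.0096 and 0.0403. Over the other alternatives without a block the adjusted p of these 3 measures was 0.0762 or more. These tests count replicates 2 and 3, which are nearly alike, as separate samples. On a logit scale or with common partners, the gap gave exact p = 0.457 and 0.857, and with the partner arm as trans 0.533. With the replicate block and 8 samples no measure could pass alone after adjustment, so that this fit says nothing about stability (exact p = 0.0417, the smallest possible, for the gap, 0.0833 for end and cis density, 0.125 for the cis share, 0.292 for trans density). With the block and 11 libraries, the end density (exact p = 0.00347), the cis density (0.00694), the cis share (0.00694) and the gap (0.00174) passed after adjustment. These tests, too, count replicates 2 and 3 as separate samples. Their block of replicate 1 joins *nhomie forward*, with 58.2% long cis contacts, with 3 libraries of 24.7% to 37.5%. They cannot tell genotype from this difference between libraries. Of the libraries, 4 of 11 correlated best with one of their own number, which cannot decide on a block either. Pairs under 1 kb could not be removed by arm.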
